A study of Homo sapiens with 9 samples.

Results

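The WNT ligands, receptors and targets described here are 58 genes out of 60708 listed in the count files: 17 WNT ligands, 10 FZD receptors, 4 LRP and ROR co-receptors, 9 secreted antagonists, 7 RSPO and LGR genes, the membrane ubiquitin ligases *RNF43* and *ZNRF3*, 5 genes of the destruction complex and its feedback, and 4 TCF and LEF factors. They were listed by gene symbol for their place in the pathway, with earlier results of these data known. Each symbol matched 1 gene identifier. The study gives the source of the RNA as MDA-MB-231, an established human breast cancer line of the basal, triple-negative type. By the same account, WT is the line itself. CS16 and CS19 are given as single-cell clones labelled *SNAI1*-KO, raised after CRISPR/Cas9 targeting of *SNAI1*, a repressor that drives epithelial-mesenchymal transition. Cells were untreated, and each of the 3 lines gave 3 libraries, so WT (n = 3) was compared with both clones together (n = 6) and with each clone alone (n = 3), and the clones with each other. Each clone is 1 selected colony, so a difference shared by both clones and one particular to a colony can only be separated as far as 2 colonies allow, and nothing in the labels says that the 3 libraries of a line came from separate cultures.

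WNT proteins are secreted, lipid-modified ligands that bind FZD receptors on the cell surface. In the β-catenin branch, FZD acts together with *LRP5* or *LRP6*, the destruction complex built on AXIN and *APC* stops marking β-catenin for degradation, and β-catenin enters the nucleus to work with TCF and LEF factors. *AXIN2*, *NKD1*, *RNF43*, *ZNRF3*, *LGR5* and *LEF1* are commonly used as readouts of that branch, and several of them feed back on it. In the other branches, ligands such as *WNT5A* and *WNT11* act through FZD and the receptor tyrosine kinases *ROR1* and *ROR2* on cell polarity and movement. In the mammary gland WNT signals maintain basal stem cells, and MDA-MB-231 is known for a high output of the antagonist *DKK1*.

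The libraries held 19527195 to 28627777 counted read pairs. Levels are given as CPM, counts scaled to the TMM-normalized library size, in the usual parts per 1e+06 read pairs, and levels of different genes are compared only as CPM per kb of exon. A floor of 3 counts corresponded to 0.0984 to 0.172 CPM. Several measurements go against the labels or set libraries apart. *SNAI1* itself was not lower in the libraries labelled *SNAI1*-KO, with 0.791, 2.17 and 1.08 CPM in the WT libraries, 1.28, 1.91 and 1.95 in CS16 and 2.60, 4.08 and 3.08 in CS19. For *SNAI1* the log2 fold change was 0.89 ± 0.42 SE, and the adjusted p was 0.0838. These counts cover the whole gene and do not show where it was cut, and they do not measure protein. The study itself reports no detectable SNAI1 protein in the clones, lower RNA at each *SNAI1* exon by RT-qPCR and deletions at the locus. Without WT-2, *SNAI1* passed as higher at 1.405 (adjusted p = 0.0146). The 9p21 genes *CDKN2A*, *CDKN2B* and *MTAP* lie in a homozygous deletion known for MDA-MB-231. They had 0 counts in all 3 WT libraries and summed to 164 to 182 CPM in the clones. Of 6 markers of basal mesenchymal breast lines, all 6 passed the test as lower in the clones, from a summed 5373 to 5883 CPM in WT to 338 to 394 CPM, and *CD44* was at 0 in 5 of 6 clone libraries. Of 6 mammary luminal markers, 4 were tested and all 4 were lower, from 1150.1 to 1526 CPM in WT to 53.4 to 80.6 CPM. Of 5 embryonic kidney markers, 4 were tested, of which 3 were higher and *PAX8* was lower, with sums of 52.8 to 70.5 CPM in WT and 99.3 to 123 CPM in the clones. Of 4 fibroblast markers, *PDGFRA* was higher and *COL1A2*, at 0 in all clone libraries, was lower, with sums of 44.6 to 102 CPM in WT and 6.59 to 8.64 CPM in the clones. The part of these differences in the WNT results was not tested. Whether a clone differs from WT by the targeting or by its origin was not tested either, so libraries carry their label names only as names. In bulk RNA, fewer cells expressing a gene and less RNA per cell cannot be told apart. The library WT-2 stood apart from the other WT libraries, correlating with WT-1 and WT-3 at Pearson's r of 0.952 and 0.948 over log2 CPM across genes, while the latter pair reached 0.995, and results that change without it are given both ways.

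Between the clones and WT, members were called in both directions among the ligands, the FZD receptors, the co-receptors and the antagonists, and only higher or not at all in the other roles. *WNT5A*, *WNT11*, *WNT3A*, *WNT10B*, *FZD3*, *FZD9*, *ROR2*, *SFRP1*, *LGR5*, *NKD1* and *LEF1* were higher in both clones, while *WNT7B*, *WNT9A*, *WNT4*, *FZD6*, *FZD2*, *FZD7*, *ROR1* and *DKK1* were lower in both. Of the 58 members, 44 had enough counts to be tested and 14 did not. Of the 44, 14 were called higher and 9 lower, where a call needs a log2 fold change of at least 2 and an adjusted p below 0.05 by the quasi-likelihood test of edgeR, adjusted over all genes after Benjamini and Hochberg. Over all 19631 genes tested, 26.9% were called, 12.6% higher and 14.3% lower. At the adjusted p alone, 20 members passed as higher and 13 as lower, and 11 did not pass, while of all genes 63.7% passed, 31.1% as higher and 32.6% as lower. The median log2 fold change of the tested members was 0.33, against -0.00404 over all genes, and without WT-2 0.66 against 0.036. Without WT-2, 13 were called higher and 6 lower, against 25.9% of all genes (13% higher and 12.9% lower), 20 passed as higher and 15 as lower at the adjusted p, against 67.2% (34% and 33.2%), and 19 of the 23 calls remained. *WNT4*, *FZD7*, *LRP5* and *FZD10* were the ones lost.

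The WNT ligands showed a change in which genes were expressed. Of 17 ligands, 11 were tested, of which *WNT3A*, *WNT5A*, *WNT10B* and *WNT11* were called higher, *WNT4*, *WNT7B* and *WNT9A* were called lower, *WNT5B* passed as lower, and *WNT2B*, *WNT3* and *WNT8B* did not pass. The largest rise was in *WNT5A*, the ligand best known for signalling through *ROR2* without β-catenin, on chromosome 3. Its levels were 0.0494, 0 and 0 CPM in the WT libraries, 52.9, 50.5 and 47.2 in CS16 and 87.3, 90.8 and 98.2 in CS19, and the WT libraries held 1, 0 and 0 counts. No WT library came near any clone library. The ratio of pooled levels of the clones to WT was 4159 (exact 95% counting interval 746 to 164276), with an adjusted p of 2.52e-08, and this interval, like the others below, covers counting error only. CS19 held more *WNT5A* than CS16 (log2 fold change -0.88 ± 0.07 SE, adjusted p = 1.68e-06).

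*WNT11*, a ligand of the polarity branch, had 0.198, 0.286 and 0.103 CPM in the WT libraries, 7.12, 6.93 and 6.85 in CS16 and 3.10, 3.87 and 3.44 in CS19. For *WNT11* the log2 fold change was 4.71 ± 0.50 SE, and the adjusted p was 6.57e-06. All 6 clone libraries lay above all WT libraries, and in the opposite order to *WNT5A* the CS16 libraries were the higher ones (log2 fold change 1.00 ± 0.14 SE, adjusted p = 0.000152). *WNT3A*, the ligand most used to activate β-catenin in culture, had 0, 0.286 and 0.103 CPM in the WT libraries, 3.83, 2.39 and 2.71 in CS16 and 2.69, 3.56 and 3.15 in CS19. For *WNT3A* the log2 fold change was 4.56 ± 0.55 SE, and the adjusted p was 2.04e-05. *WNT3A* rose from at most 0.286 CPM to a low but counted level in both clones, with overlapping clone libraries. *WNT10B*, a β-catenin ligand active in mammary tissue, had 1.48, 2.52 and 1.54 CPM in the WT libraries, 7.51, 9.99 and 7.33 in CS16 and 8.38, 8.16 and 8.30 in CS19. For *WNT10B* the log2 fold change was 2.17 ± 0.24 SE, and the adjusted p was 9.86e-06. Its WT and clone libraries did not overlap, and the clones differed by a log2 fold change of only -0.01 (CS16 against CS19, adjusted p = 0.972).

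The windows before the annotated starts of *WNT5A* and *WNT3A* are shown because *SNAI1* binds E-boxes with the letters CAGGTG. Of the called members with a window, these ligands are the ones whose windows held a match. Windows of 250 bases before RefSeq starts (GRCh38.p14) were at hand for 40 of the 58 members, 50 windows in all. The called members *WNT7B*, *WNT10B*, *WNT11*, *FZD2*, *FZD3*, *FZD6*, *FZD7*, *FZD10*, *SFRP1*, *DKK2*, *LGR5*, *RSPO2* and *NKD1* had no window and were not searched. CAGGTG or its reverse complement CACCTG occurred in 7 of these 50 windows (14.0%) and in 6143 of all 35116 windows (17.5%), a lower share among the members. The match in *WNT5A* starts 204 bases before the more upstream of 2 RefSeq starts (chr3:55487307-55487556, minus strand), and those in *WNT3A* start 247 and 29 bases before its start (chr1:228006748-228006997, plus strand). Capitals mark the matches, and a match is a run of letters, not a measured binding site.
WNT5A: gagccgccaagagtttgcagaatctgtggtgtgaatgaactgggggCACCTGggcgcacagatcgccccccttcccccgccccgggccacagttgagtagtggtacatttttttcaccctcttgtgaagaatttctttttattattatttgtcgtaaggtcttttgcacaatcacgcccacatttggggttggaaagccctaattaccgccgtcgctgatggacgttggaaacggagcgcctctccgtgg
WNT3A: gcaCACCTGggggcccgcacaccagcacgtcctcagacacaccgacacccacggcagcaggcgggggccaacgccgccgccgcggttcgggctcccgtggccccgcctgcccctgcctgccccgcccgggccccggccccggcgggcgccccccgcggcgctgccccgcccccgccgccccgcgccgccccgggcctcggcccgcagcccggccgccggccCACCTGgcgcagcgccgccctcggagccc

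Among the ligands that were lower, *WNT7B*, a β-catenin ligand of epithelia, had 7.91, 77.5 and 5.96 CPM in the WT libraries, 0, 0 and 0.0398 in CS16 and 0.319, 0.174 and 0.328 in CS19. For *WNT7B* the log2 fold change was -7.59 ± 0.94 SE, and the adjusted p was 2.46e-05. WT-2 held far more of it than WT-1 and WT-3, and without WT-2 the log2 fold change was -5.46 (adjusted p = 6e-06). Even WT-3, the lowest WT library, lay above every clone library. *WNT9A*, a ligand first described in limb and joint, had 10.9, 25.9 and 12.3 CPM in the WT libraries, 0.442, 0.430 and 0.797 in CS16 and 1.09, 0.999 and 1.02 in CS19. For *WNT9A* the log2 fold change was -4.34 ± 0.35 SE, and the adjusted p was 7.92e-07. The groups did not overlap. *WNT4*, a ligand of the luminal mammary response to progesterone, had 4.20, 12.8 and 2.11 CPM in the WT libraries, 1.18, 0.430 and 0.398 in CS16 and 1.14, 1.56 and 0.918 in CS19. For *WNT4* the log2 fold change was -2.75 ± 0.53 SE, and the adjusted p was 0.000771. WT-2 was again the highest, and without it the log2 fold change of *WNT4* fell under the limit for a call, to -1.75 (adjusted p = 0.00431).

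*WNT5B*, the close relative of *WNT5A*, went the other way from it. Its levels were 17.5, 25.6 and 22.2 CPM in the WT libraries, 4.47, 5.11 and 4.10 in CS16 and 7.92, 9.21 and 7.08 in CS19. For *WNT5B* the log2 fold change was -1.78 ± 0.26 SE, and the adjusted p was 9.68e-05. WT and clones did not overlap. CS19 kept more of it than CS16 (log2 fold change -0.83 ± 0.15 SE, adjusted p = 0.000901), so that it was called against WT in CS16 (-2.22) but stayed under the fold limit in CS19 (-1.39). *WNT3*, a β-catenin ligand of the mammary epithelium, did not pass between the clones and WT (log2 fold change 0.08 ± 0.30 SE, adjusted p = 0.83), with 7.22, 11.2 and 7.15 CPM in the WT libraries, 6.14, 5.78 and 6.77 in CS16 and 11.3, 12.4 and 11.6 in CS19. Its clones lay on either side of WT, and CS16 was lower than CS19 (log2 fold change -0.92 ± 0.11 SE, adjusted p = 5.15e-05).

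Neither of the other tested ligands passed. *WNT8B* had a log2 fold change of 0.72 (adjusted p = 0.178), which passed without WT-2 at 1.31 (adjusted p = 0.0317), and *WNT2B* had 0.16 (adjusted p = 0.652), with 21.5% of its exon length shared with *ST7L* on the opposite strand. Pairs were counted without use of strand and those that fell on 2 genes were left out, so these counts are uncertain. Of the 6 ligands not tested, *WNT10A* stood at 0.445, 0.744 and 0.617 CPM in the WT libraries, 0, 0 and 0 in CS16 and 0, 0.0434 and 0.0328 in CS19, a pooled WT to clone ratio of 42.2 (exact 95% counting interval 10.8 to 363). *WNT2* had at most 0.430 CPM in any clone library and 0 counts in WT, *WNT16* had 0.0434 to 0.544 CPM over all libraries, and *WNT1*, *WNT6* and *WNT7A* stayed at or under 3 counts in every library.

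Per kb of exon, the summed level of the 17 ligands was 12.6, 35.4 and 12.9 CPM per kb in WT-1, WT-2 and WT-3, 17.1 to 18.5 in CS16 and 23.6 to 25.2 in CS19. *WNT7B* was the highest ligand in the WT mean at 5.99 CPM per kb, which rests on WT-2, followed by *WNT5B* at 5.13 and *WNT9A* at 4.09. In the clones *WNT5A* was the highest, at 7.02 CPM per kb in CS16 and 12.9 in CS19, and made up 38.5 to 40.0% of the ligand sum in the CS16 libraries and 50.5 to 54.6% in the CS19 libraries, against 0 to 0.0549% in WT. No test was made of these sums.

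**Figure D1:**
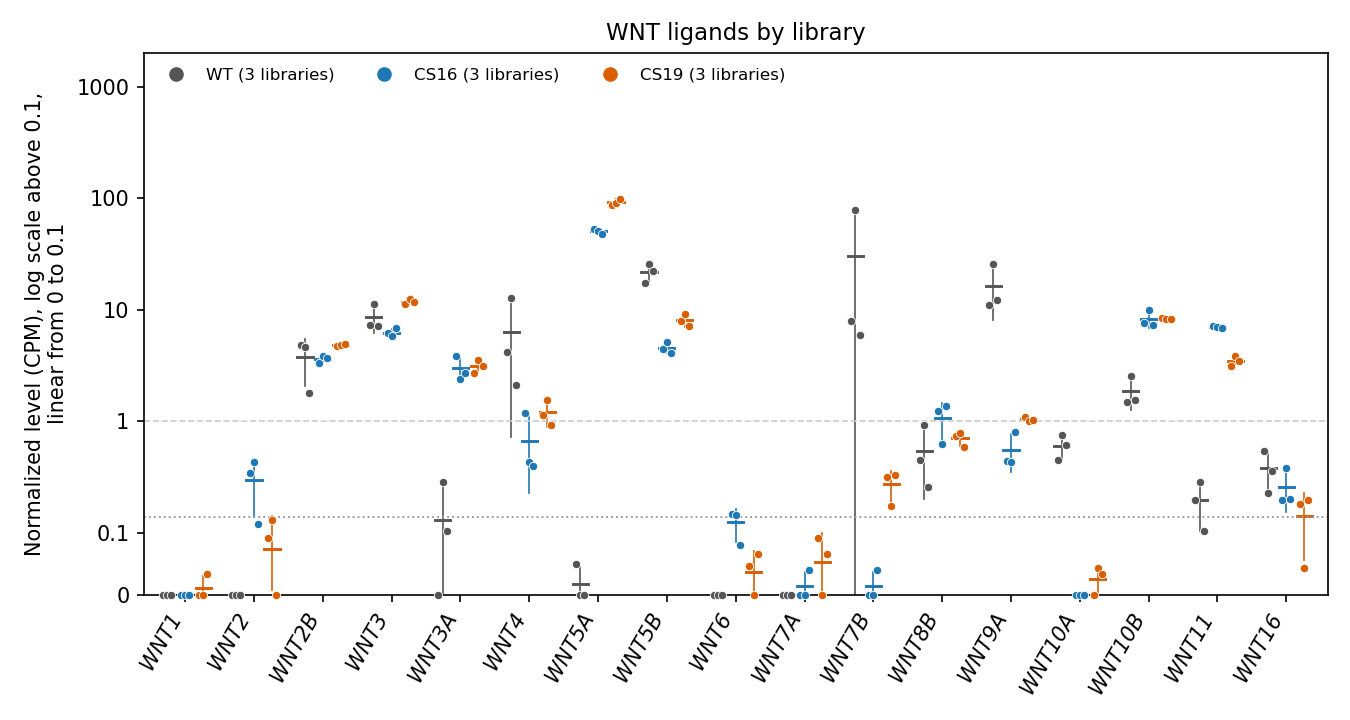
Levels of the 17 WNT ligands in CPM for each library (points; WT grey, CS16 blue, CS19 orange), with the group mean (bar) and SD (line, cut at 0), on an axis that is logarithmic above 0.1 and linear below it; the dotted line is the mean floor of 3 counts and the dashed line 1 CPM. *WNT5A* lies at 47.2 to 98.2 CPM in the clones and at or under 0.0494 CPM in WT, while *WNT9A* and *WNT7B* show the opposite placement.

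All 10 FZD receptors were tested and all 10 passed at the adjusted p, 5 in each direction, beside 63.7% of all genes. Without WT-2, 9 passed, 4 as higher and 5 as lower, beside 67.2% of all genes, and *FZD10* did not pass. *FZD3*, *FZD9* and *FZD10* were called higher, *FZD2*, *FZD6* and *FZD7* were called lower, *FZD5* and *FZD8* passed as higher, and *FZD1* and *FZD4* as lower. *FZD6*, a receptor of the polarity branch, had 122, 71.2 and 145 CPM in the WT libraries, 3.83, 5.64 and 4.10 in CS16 and 5.96, 5.86 and 6.39 in CS19. For *FZD6* the log2 fold change was -4.41 ± 0.24 SE, and the adjusted p was 2.5e-08. *FZD7*, which carries β-catenin signals in basal breast cancer cells, had 99.2, 141 and 119 CPM in the WT libraries, 27.3, 30.5 and 27.7 in CS16 and 30.7, 26.0 and 27.6 in CS19. For *FZD7* the log2 fold change was -2.08 ± 0.13 SE, and the adjusted p was 1.12e-07. Both were far lower in every clone library than in any WT library. Without WT-2, *FZD7* just missed the fold limit at -1.95 (adjusted p = 1.47e-08). *FZD2* had 45.1, 67.1 and 51.6 CPM in the WT libraries, 8.35, 9.94 and 9.09 in CS16 and 11.1, 9.64 and 10.9 in CS19. For *FZD2* the log2 fold change was -2.47 ± 0.16 SE, and the adjusted p was 1.12e-07. Again the groups did not overlap.

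*FZD3*, a receptor of axon guidance and planar polarity, was the highest of the receptors that rose. Its levels were 12.8, 6.52 and 15.3 CPM in the WT libraries, 68.4, 72.5 and 65.5 in CS16 and 60.6, 62.8 and 68.2 in CS19. For *FZD3* the log2 fold change was 2.52 ± 0.25 SE, and the adjusted p was 3.53e-06. The *FZD3* groups did not overlap. *FZD9* had 0.0989, 0.114 and 0.0514 CPM in the WT libraries, 5.84, 6.45 and 7.05 in CS16 and 7.51, 6.99 and 7.11 in CS19, from WT counts of 2, 2 and 1. The pooled ratio of clones to WT was 78.5 (exact 95% counting interval 33.5 to 242), with an adjusted p of 1.6e-08. CS16 and CS19 did not pass a test of their difference (log2 fold change -0.16 ± 0.13 SE, adjusted p = 0.386).

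*FZD10* was the member whose clones differed most. It had 0 counts in the 3 WT libraries and 2.21, 2.63 and 1.83 CPM in CS16, but 0.0455, 0 and 0.0984 CPM in CS19, at or under 3 counts in each CS19 library. CS16 was thus at least 14.1-fold higher than WT, measured against the floor of 3 counts per library, and its pooled ratio to CS19 was 41.5 (exact 95% counting interval 15.9 to 154), with an adjusted p of 4.56e-06. The call with both clones together (adjusted p = 0.0377) was lost on leaving out any 1 WT library, with adjusted p of 0.0803, 0.0684 and 0.0727 without WT-1, WT-2 or WT-3. Without any 1 CS16 library, *FZD10* no longer passed the filter on low counts and was not tested.

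*FZD1* had 42.8, 70.9 and 49.98 CPM in the WT libraries, 17.1, 16.4 and 17.1 in CS16 and 20.1, 22.4 and 21.8 in CS19. For *FZD1* the log2 fold change was -1.51 ± 0.18 SE, and the adjusted p was 1.94e-05. The clones lay below WT without overlap, and CS16 slightly below CS19 (log2 fold change -0.35 ± 0.08 SE, adjusted p = 0.00717). *FZD5* (log2 fold change 1.16 ± 0.19 SE, adjusted p = 0.000209) and *FZD8* (log2 fold change 1.49 ± 0.25 SE, adjusted p = 0.000291) were higher in every clone library than in any WT library, and *FZD4* (log2 fold change -0.65 ± 0.13 SE, adjusted p = 0.00103) was lower. *FZD4* shares 18.9% of its exon length with *PRSS23*, so part of its pairs were not counted.

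Summed per kb of exon, the FZD receptors stood at 75.9 to 88.8 CPM per kb in the WT libraries and at 29.6 to 32.1 in the clone libraries. *FZD6* and *FZD7* were the highest in WT, with mean levels of 27.7 and 26.1 CPM per kb and shares of 20.9 to 40.1% and 28.5 to 36.5% of the FZD sum. *FZD7* was the highest receptor in both clones, with 6.22 CPM per kb in CS16 and 6.13 in CS19, but only 18.8 to 21.6% of the sum, and it was followed by *FZD3*, *FZD8* and *FZD5* in CS16 and by *FZD3*, *FZD5* and *FZD8* in CS19. *FZD6* made up 3.19 to 4.96% of the sum in the clones, and *FZD3* 0.563 to 1.25% in WT and 14.2 to 16.8% in the clones.

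**Figure D2:**
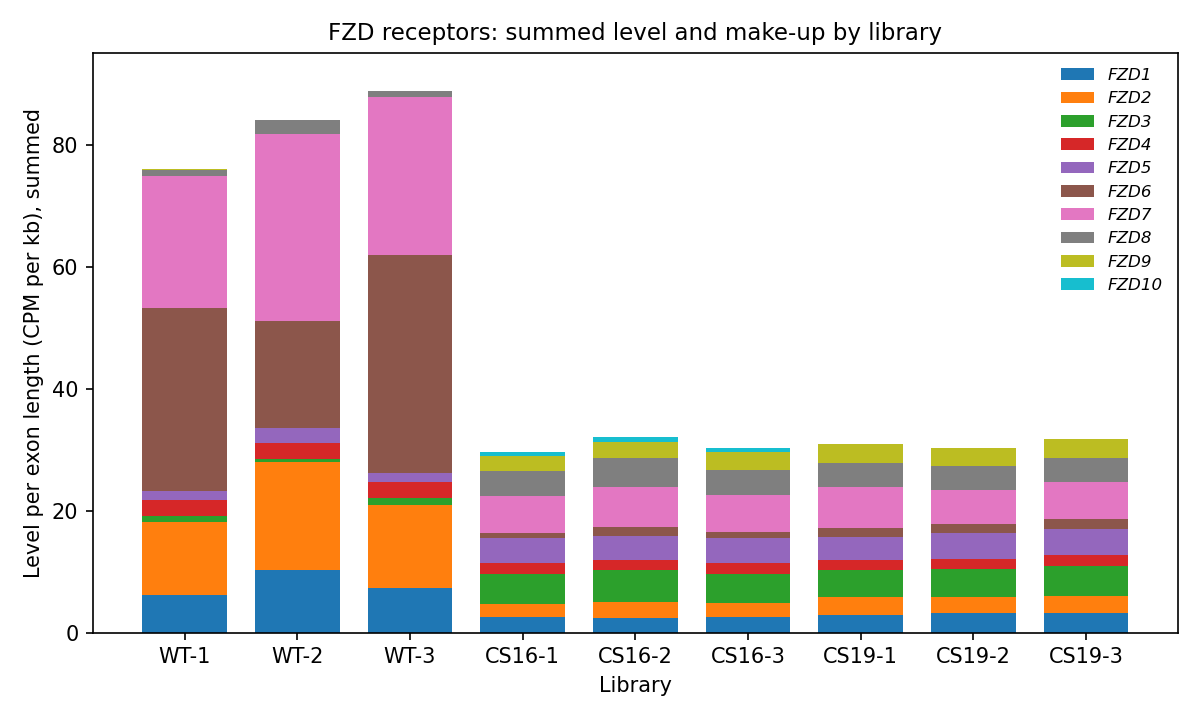
Level per exon length in CPM per kb of the 10 FZD receptors, stacked for each of the 9 libraries. The WT bars reach 75.9 to 88.8 CPM per kb and consist mostly of *FZD6*, *FZD7* and *FZD2*, and the 6 clone bars reach 29.6 to 32.1 CPM per kb with no receptor above 21.6% of a bar.

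Of the 4 co-receptors, *ROR2* was called higher, *LRP5* and *ROR1* were called lower, and *LRP6* did not pass. *ROR2*, the tyrosine kinase receptor of *WNT5A*, had 0.148, 0.458 and 0.463 CPM in the WT libraries, 10.1, 7.93 and 8.13 in CS16 and 14.4, 14.9 and 13.4 in CS19. For *ROR2* the log2 fold change was 5.00 ± 0.42 SE, and the adjusted p was 9.33e-07. Every clone library exceeded every WT library, and like *WNT5A* it was higher in CS19 than in CS16 (log2 fold change -0.71 ± 0.12 SE, adjusted p = 0.000463). *ROR1*, its paralog found in many basal breast cancers, had 113.98, 127 and 115.48 CPM in the WT libraries, 24.3, 25.2 and 23.4 in CS16 and 28.2, 27.6 and 28.7 in CS19. For *ROR1* the log2 fold change was -2.18 ± 0.12 SE, and the adjusted p was 3.25e-08. The 2 ROR genes moved in opposite directions, without overlap for either, although per kb *ROR1* remained above *ROR2* in both clones, at 3.62 against 1.48 CPM per kb in CS16 and 4.19 against 2.42 in CS19.

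*LRP5* and *LRP6* are both β-catenin co-receptors. *LRP5* had 144, 525 and 143 CPM in the WT libraries, 61.3, 48.6 and 61.2 in CS16 and 68.0, 80.7 and 70.1 in CS19. For *LRP5* the log2 fold change was -2.06 ± 0.35 SE, and the adjusted p was 0.000335. The WT value rests in large part on WT-2, and without it the log2 fold change was -1.15 (adjusted p = 2.65e-05), which passes the test but not the fold limit. Without CS16-2 *LRP5* also missed that limit, at -1.98. *LRP6* had 121, 84.2 and 107 CPM in the WT libraries, 110.58, 101 and 103 in CS16 and 121, 121 and 115.71 in CS19. For *LRP6* the log2 fold change was 0.10 ± 0.14 SE, and the adjusted p was 0.543. WT-1 and WT-3 lay inside the range of the clones and WT-2 below it. CS16 lay a little below CS19 in both (log2 fold change -0.36 ± 0.10 SE, adjusted p = 0.014 for *LRP5*, log2 fold change -0.19 ± 0.06 SE, adjusted p = 0.0431 for *LRP6*). Neither difference was stable. That of *LRP6* passed in 3 of 13 alternative analyses, with an adjusted p of up to 0.722, and that of *LRP5* in 10 of 13, with an adjusted p of up to 0.861. Per kb, *LRP5* was the highest co-receptor in WT at 43.8 CPM per kb, while *LRP5* and *LRP6* were close in the clones, at 9.23 and 10.1 CPM per kb in CS16 and 11.8 and 11.5 in CS19.

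**Figure D3:**
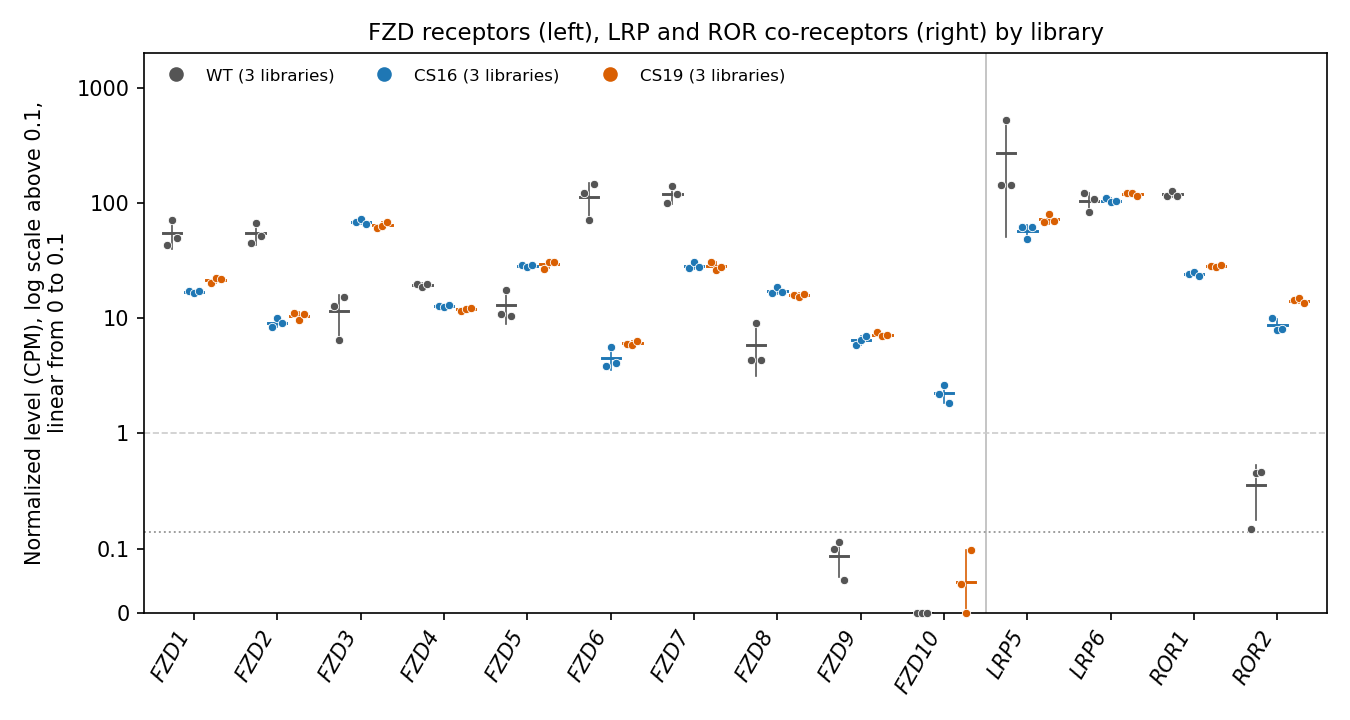
Levels of the FZD receptors and, right of the vertical line, the LRP and ROR co-receptors in CPM for each library, drawn as for the ligands. *FZD6*, *FZD7*, *FZD2*, *FZD1* and *ROR1* lie higher in WT, *FZD3*, *FZD9* and *ROR2* lie higher in both clones, *FZD10* is above 1 CPM only in CS16, and 1 WT library holds *LRP5* at 525 CPM.

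Among the 9 secreted antagonists, 5 were tested. *DKK1* was called lower, *SFRP1* and *DKK2* were called higher, *DKK3* passed as higher and *SFRP5* did not pass. *DKK1*, which blocks *LRP5* and *LRP6*, was the most abundant antagonist in WT, with 451, 186 and 539.6 CPM in the WT libraries, 1.96, 2.29 and 1.99 in CS16 and 2.41, 3.21 and 2.89 in CS19. For *DKK1* the log2 fold change was -7.31 ± 0.32 SE, and the adjusted p was 4.68e-09. Even WT-2, with the lowest WT level, lay far above every clone library. *SFRP1*, which binds WNT ligands themselves, had 2.32, 0.686 and 1.34 CPM in the WT libraries, 31.6, 30.6 and 30.7 in CS16 and 20.4, 23.4 and 20.6 in CS19. For *SFRP1* the log2 fold change was 4.16 ± 0.37 SE, and the adjusted p was 1.47e-06. It rose without overlap, more in CS16 than in CS19 (log2 fold change 0.53 ± 0.08 SE, adjusted p = 0.000341). Per kb, the antagonist sum was 84.6 to 243.7 CPM per kb in WT, of which *DKK1* made up 98.9 to 99.7%, and 6.78 to 8.64 in the clones, where *SFRP1* was the highest and made up 76.8 to 79.0% in CS16 and 61.4 to 64.4% in CS19.

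The window before the start of *DKK1* (chr10:52314031-52314280, plus strand) is shown because *DKK1* is itself a known target of β-catenin. Among the 50 member windows at hand, it was the only one that held the TCF and LEF core CTTTGA or its reverse complement TCAAAG. No window was at hand for the targets *AXIN2*, *NKD1*, *LGR5* and *ZNRF3*. The matches start 149 and 95 bases before the start. The core occurred in 1 of the 50 member windows (2.0%) and in 3937 of all 35116 windows (11.2%), and its absence from a window says nothing about sites elsewhere.
DKK1: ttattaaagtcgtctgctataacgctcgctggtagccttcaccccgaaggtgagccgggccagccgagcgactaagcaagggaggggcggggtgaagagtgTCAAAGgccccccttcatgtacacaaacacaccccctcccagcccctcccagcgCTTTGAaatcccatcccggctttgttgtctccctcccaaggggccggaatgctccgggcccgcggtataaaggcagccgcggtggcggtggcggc

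*SFRP5* did not pass between the clones and WT (log2 fold change 0.09 ± 0.64 SE, adjusted p = 0.908). Its levels were 0.989, 0.744 and 0.309 CPM in the WT libraries, 0.344, 0.191 and 0.239 in CS16 and 1.14, 1.22 and 1.18 in CS19, with the CS19 libraries above WT and those of CS16 low in the WT range or under it. It was called lower in CS16 than in CS19 (log2 fold change -2.18 ± 0.35 SE, adjusted p = 0.000473), with levels near 1 CPM or under. *DKK2* stayed under 1 CPM in every library, with 1 count in all of WT, and its pooled ratio of clones to WT was 27.8 (exact 95% counting interval 4.83 to 1114, adjusted p = 0.000331). *DKK3* rose from 2.12 to 2.87 CPM in WT to 2.90 to 6.43 CPM in the clones (log2 fold change 0.93 ± 0.27 SE, adjusted p = 0.0101), but 47.5% of its exon length is shared with *USP47* on the opposite strand. Of the antagonists not tested, *WIF1* had 0 counts in WT and 0.0656 to 0.638 CPM in the clones, *DKK4* and *SFRP4* lay between 0 and 0.229 CPM in every library, and *SFRP2* stayed at or under 3 counts in every library.

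RSPO proteins bind LGR receptors and thereby remove *RNF43* and *ZNRF3*, which mark FZD receptors for degradation. *LGR5*, the stem cell marker and β-catenin target, had 0.445, 0.572 and 0.463 CPM in the WT libraries, 14.0, 10.4 and 10.9 in CS16 and 6.69, 6.43 and 6.36 in CS19. For *LGR5* the log2 fold change was 4.20 ± 0.38 SE, and the adjusted p was 2.01e-06. The clone libraries all exceeded the WT libraries, and CS16 exceeded CS19 (log2 fold change 0.85 ± 0.13 SE, adjusted p = 0.000357). *LGR4*, its broadly expressed paralog, had 144, 65.6 and 144 CPM in the WT libraries, 123, 131 and 123 in CS16 and 99.9, 106 and 105 in CS19. For *LGR4* the log2 fold change was -0.04 ± 0.22 SE, and the adjusted p was 0.9. *LGR4* remained the highest of these genes per kb in every group. Without WT-2, *LGR4* passed as lower at -0.33 (adjusted p = 0.024). CS16 held slightly more *LGR4* than CS19 (log2 fold change 0.27 ± 0.06 SE, adjusted p = 0.00491). *LGR5* made up 0.374 to 1.03% of the RSPO and LGR sum per kb in WT, 8.72 to 12.1% in CS16 and 6.75 to 7.44% in CS19.

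*RSPO2* was the single RSPO gene tested. It was called higher with 0.398 to 0.787 CPM in the clones against 1 count in all of WT, a pooled ratio of 35.1 (exact 95% counting interval 6.13 to 1400.2, adjusted p = 9.77e-05), and stayed under 1 CPM. *RSPO1* and *RSPO4* stayed at or under 3 counts in every library, *RSPO3* lay between 0 and 0.286 CPM, and *LGR6* had 0.154 to 0.744 CPM in WT, 0 counts in CS16 and 0.0328 to 0.228 CPM in CS19. *ZNRF3* was higher in the clones with 18.4, 28.6 and 18.3 CPM in the WT libraries, 50.9, 47.2 and 48.5 in CS16 and 54.5, 49.99 and 54.9 in CS19. For *ZNRF3* the log2 fold change was 1.23 ± 0.17 SE, and the adjusted p was 7.72e-05. All clone libraries lay above WT. *RNF43* did not pass (log2 fold change 0.32 ± 0.24 SE, adjusted p = 0.27), and 69.0% of its exon length is shared with other genes.

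Of the destruction complex and feedback genes, *NKD1* was called higher, *AXIN2* and *APC* passed as higher, and *AXIN1* and *CTNNB1* did not pass. *NKD1*, a target gene that restrains DVL, had 0, 0.172 and 0 CPM in the WT libraries, 12.03, 10.2 and 11.99 in CS16 and 7.51, 7.60 and 6.62 in CS19, from WT counts of 0, 3 and 0. The pooled ratio of clones to WT was 175 (exact 95% counting interval 59.7 to 848), with an adjusted p of 1.22e-06, and CS16 was above CS19 (log2 fold change 0.65 ± 0.12 SE, adjusted p = 0.00111). *AXIN2*, the most general target of the pathway, had 4.55, 5.78 and 3.60 CPM in the WT libraries, 11.98, 10.5 and 10.1 in CS16 and 10.7, 9.99 and 9.84 in CS19. For *AXIN2* the log2 fold change was 1.18 ± 0.19 SE, and the adjusted p was 0.000228. Its WT and clone libraries did not overlap, with 25.2% of its exon length shared with other genes.

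*CTNNB1*, which encodes β-catenin, was the highest of this group per kb, with 821, 544 and 904 CPM in the WT libraries, 657, 801 and 669 in CS16 and 695, 665 and 778 in CS19. For *CTNNB1* the log2 fold change was -0.09 ± 0.17 SE, and the adjusted p was 0.667. Every clone library lay within the WT range. Without WT-2 it passed as lower at -0.28 (adjusted p = 0.0462). *AXIN1* did not pass (log2 fold change 0.35 ± 0.25 SE, adjusted p = 0.237), and without WT-2 its log2 fold change was 0.84 (adjusted p = 0.000105). *APC* had 85.0, 59.7 and 75.7 CPM in the WT libraries, 134, 112.07 and 123 in CS16 and 82.9, 87.3 and 82.7 in CS19. For *APC* the log2 fold change was 0.50 ± 0.20 SE, and the adjusted p was 0.0479. CS16 lay above WT while CS19 overlapped it (log2 fold change 0.54 ± 0.07 SE, adjusted p = 0.000118 for CS16 against CS19). *APC* against WT passed in only 9 of 16 alternative analyses. It did not pass without WT-2 (0.36, adjusted p = 0.123), without WT-3, without any 1 CS16 library, with RLE normalization or with the replicate block.

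Of the TCF and LEF factors, *LEF1* was called higher, *TCF7L2* passed as lower, and *TCF7* and *TCF7L1* did not pass. *LEF1*, both a partner and a target of β-catenin, had 3.46, 3.26 and 2.98 CPM in the WT libraries, 26.2, 24.0 and 26.7 in CS16 and 14.9, 17.8 and 16.2 in CS19. For *LEF1* the log2 fold change was 2.69 ± 0.26 SE, and the adjusted p was 3e-06. CS16 was above CS19 (log2 fold change 0.65 ± 0.09 SE, adjusted p = 0.000145). *TCF7L2* had 14.0, 20.8 and 9.56 CPM in the WT libraries, 6.48, 6.45 and 5.90 in CS16 and 7.69, 9.60 and 6.89 in CS19. For *TCF7L2* the log2 fold change was -1.05 ± 0.24 SE, and the adjusted p was 0.00262. A single CS19 library lay inside the WT range. *TCF7* (log2 fold change -0.34 ± 0.28 SE, adjusted p = 0.309) and *TCF7L1* (log2 fold change -0.20 ± 0.47 SE, adjusted p = 0.733) did not pass, and both fold changes had the other sign without WT-2, at 0.21 (adjusted p = 0.309) and 0.78 (adjusted p = 0.117). Per kb, *TCF7L2* was the highest factor in WT with 49.5 to 53.0% of the sum of the 4, and *LEF1* was the highest in the clones, with 67.6 to 71.1% in CS16 and 54.9 to 57.8% in CS19.

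**Figure D4:**
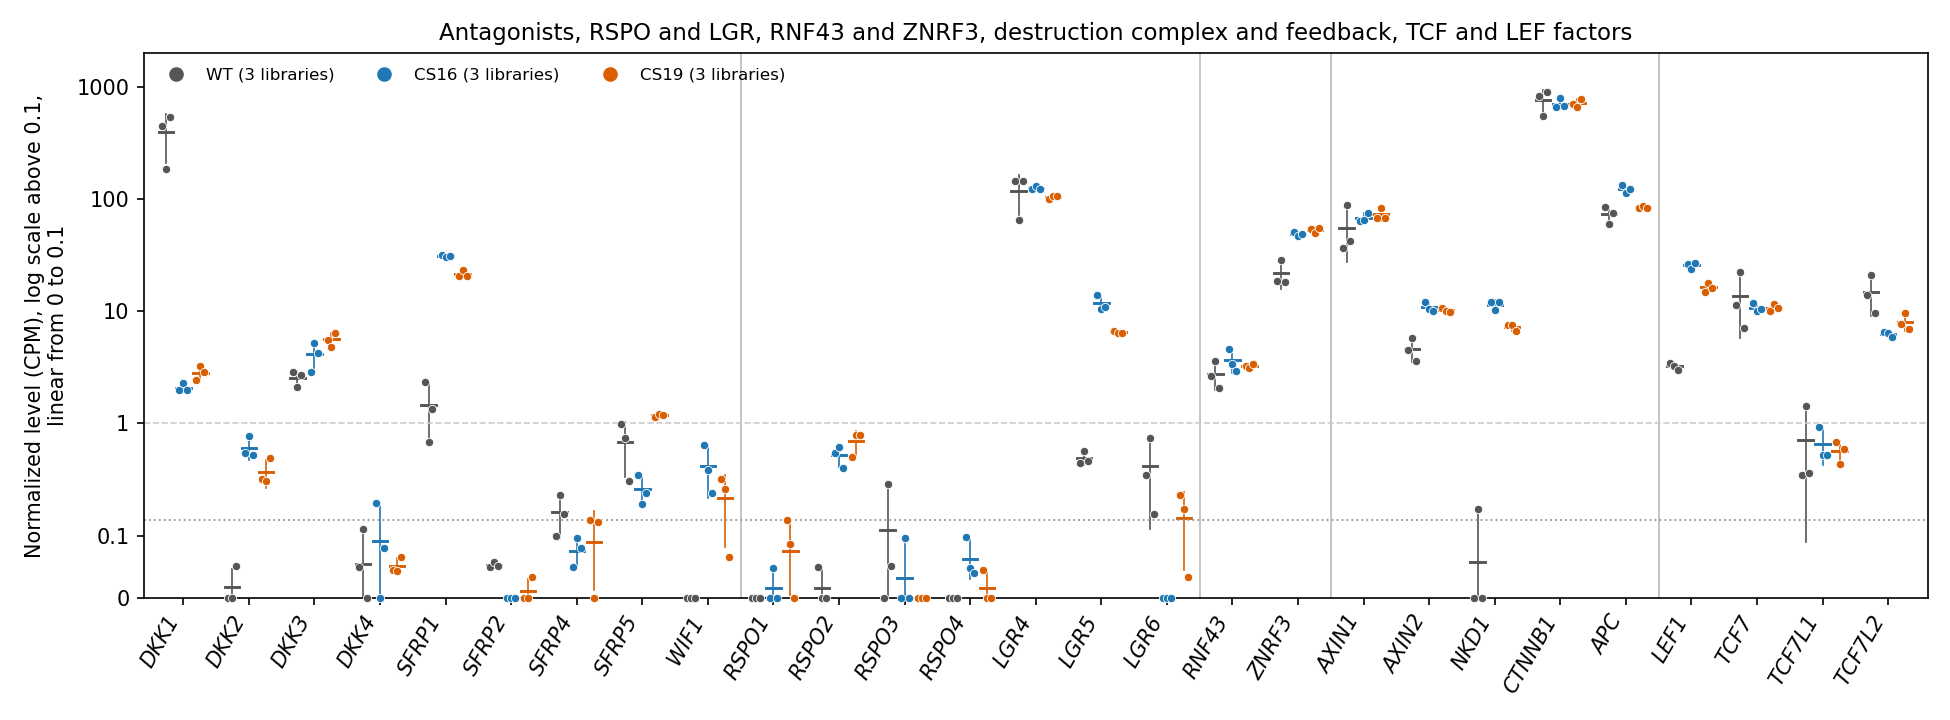
Levels in CPM for each library of the antagonists, RSPO and LGR genes, *RNF43* and *ZNRF3*, destruction complex and feedback genes, and TCF and LEF factors (groups separated by vertical lines), drawn as for the ligands. *DKK1* lies at 186 to 539.6 CPM in WT and 1.96 to 3.21 CPM in the clones, *SFRP1*, *LGR5*, *NKD1* and *LEF1* lie higher in all clone libraries, and *CTNNB1* stays between 544 and 904 CPM in all 9.

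Taken clone by clone against the same 3 WT libraries, 42 members were tested in each. In CS16, 13 were called higher and 10 lower, against 27.1% of all genes called (11.8% higher and 15.3% lower), and in CS19 12 were called higher and 8 lower, against 26.4% (12% and 14.4%). Called in both clones were 19 members, all 19 in the same direction, while 4 were called in CS16 alone and 1 in CS19 alone. The clones share their WT libraries, so this count is no independent repeat. The same count was not made over all genes, so the agreement is not shown to be particular to the members. The log2 fold changes of *NKD1* were 7.62 in CS16 and 6.99 in CS19, those of *LEF1* 3.01 in CS16 and 2.37 in CS19, those of *ROR1* -2.26 in CS16 and -2.04 in CS19 and those of *DKK1* -7.52 in CS16 and -7.06 in CS19.

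Directly between the clones, 43 members were tested. *FZD10* was called higher and *SFRP5* lower in CS16, against 1.13% of all genes called (0.633% higher and 0.496% lower), and at the adjusted p alone 8 members passed as higher and 8 as lower, against 27.4% of all genes (14.7% and 12.7%). The members higher in CS16 were *WNT11*, *FZD10*, *SFRP1*, *LGR4*, *LGR5*, *NKD1*, *APC* and *LEF1*. Those higher in CS19 were *WNT3*, *WNT5A*, *WNT5B*, *FZD1*, *LRP5*, *LRP6*, *ROR2* and *SFRP5*. *LRP6*, with -0.19, was the smallest of these differences, and *FZD10* the largest. In a fit that shared its spread with WT, 9 of the 16 no longer passed: *WNT5B*, *FZD1*, *LRP5*, *LRP6*, *ROR2*, *SFRP1*, *LGR4*, *NKD1* and *APC*, with adjusted p of 0.0595 to 0.861. Over all genes 654 passed in that fit, against 4814.

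**Figure D5:**
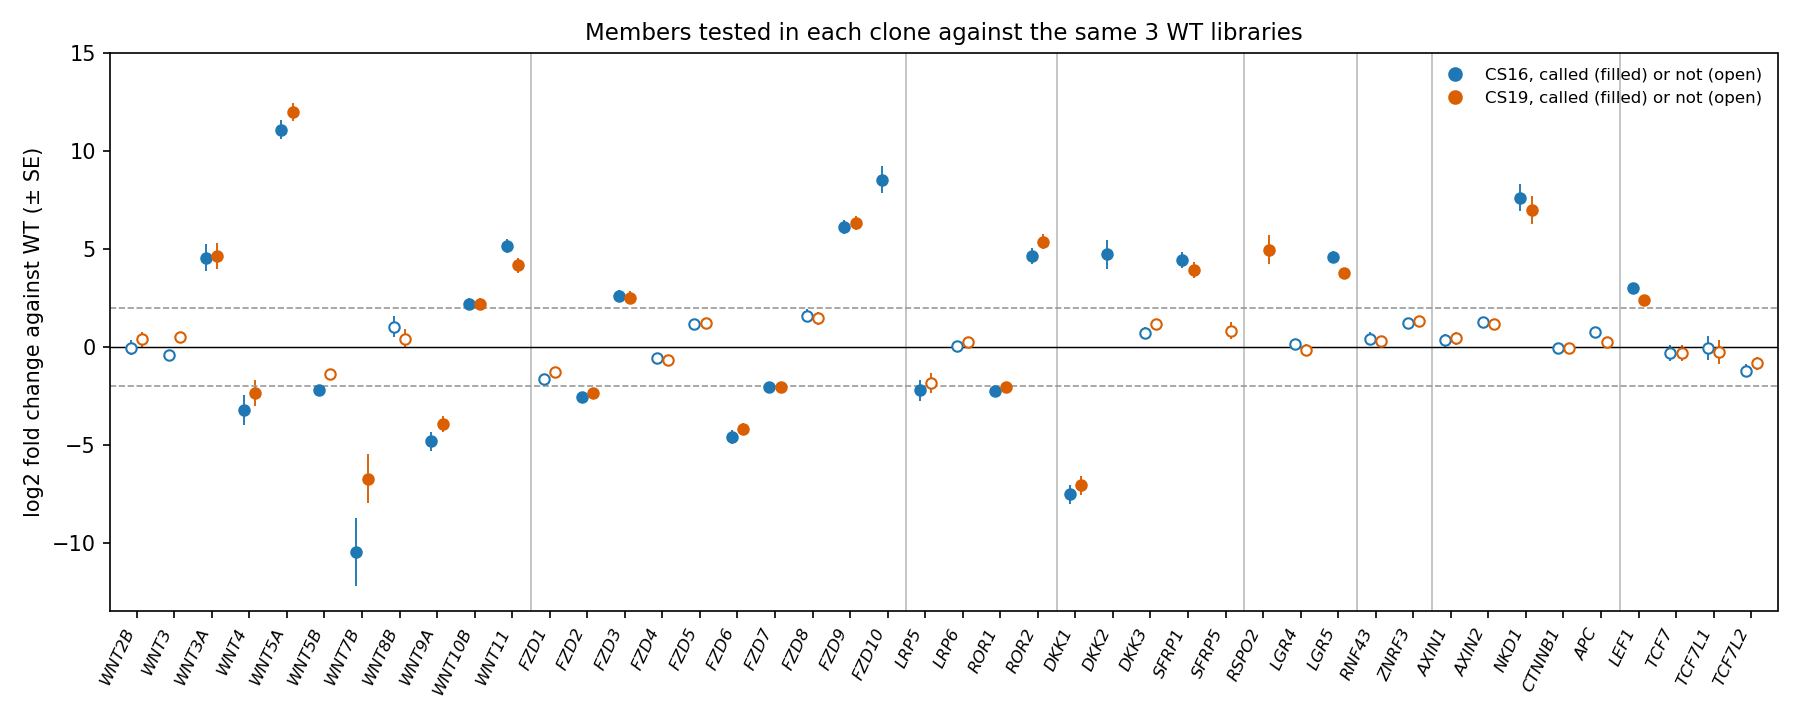
Log2 fold changes (± SE) of the members tested in CS16 (blue) and CS19 (orange), each against the same 3 WT libraries, ordered by role with vertical lines between roles; filled points were called and dashed lines mark a log2 fold change of 2 in either direction. The fitted values of *WNT5A*, *FZD9*, *FZD10* and *NKD1* depend on WT libraries at 0 to 3 counts, so for these the height shows direction more than size.

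Other genes of the pathway were taken from a list of 59, of which 53 were tested, 12 called higher and 7 lower, beside 26.9% of all genes called. At the adjusted p, 21 passed as higher and 19 as lower, beside 63.7% of all genes. Without WT-2, 12 were called higher and 5 lower, and 26 passed as higher and 20 as lower, beside 25.9% and 67.2% of all genes. Of the 7 other receptors and surface binders, 6 passed as higher and none as lower, beside 31.1% and 32.6% of all genes. Other roles leaned the other way, with 2 higher and 4 lower among 10 nuclear co-factors. Among 7 planar polarity genes, 2 passed as higher and 3 as lower. The glypican *GPC4* had 0 counts in WT and 33.6, 30.7 and 29.0 CPM in CS16 and 36.4, 36.7 and 36.5 in CS19, at least 214-fold higher (adjusted p = 5.58e-09). The co-repressor *TLE4*, which holds TCF targets silent, also had 0 counts in WT and 186, 166 and 174 CPM in CS16 and 171, 183 and 179 in CS19, at least 1117-fold higher (adjusted p = 8.24e-10). The DVL binding protein *DACT1* had 0.148, 0.172 and 0.0514 CPM in the WT libraries, 16.1, 15.1 and 16.7 in CS16 and 11.7, 12.6 and 12.2 in CS19, with at most 3 counts in each WT library, a pooled ratio of 113.85 (exact 95% counting interval 55.2 to 284, adjusted p = 1.56e-08). These 3 had the smallest adjusted p of the listed genes that were higher.

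*PRICKLE2*, of the planar polarity complex, had 41.7, 46.2 and 33.4 CPM in the WT libraries, 3.93, 2.72 and 3.15 in CS16 and 2.55, 3.78 and 3.44 in CS19. For *PRICKLE2* the log2 fold change was -3.63 ± 0.18 SE, and the adjusted p was 1.44e-08. *CTNNBIP1*, which keeps β-catenin from TCF factors, had 45.8, 65.7 and 48.7 CPM in the WT libraries, 14.4, 12.999 and 12.8 in CS16 and 14.6, 17.0 and 16.0 in CS19. For *CTNNBIP1* the log2 fold change was -1.87 ± 0.16 SE, and the adjusted p was 1.12e-06. Neither overlapped between WT and clones. *SP5*, a direct target gene in many tissues, had 2.42, 4.40 and 2.93 CPM in the WT libraries, 0, 0 and 0.0398 in CS16 and 0.137, 0 and 0 in CS19, a pooled ratio of WT to clones of 113.55 (exact 95% counting interval 43.6 to 421, adjusted p = 2.13e-06).

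Target genes passed in both directions. Among the 58 members, the targets *AXIN2*, *NKD1*, *LGR5*, *ZNRF3* and *LEF1* passed as higher in the clones, *DKK1* was called lower and *RNF43* did not pass. Among the 10 other reported target genes, 8 were tested, none passed as higher and 5 were called lower. Of all genes, 31.1% passed as higher and 14.3% were called lower. Leaving out WT-2, 3 of these targets were called lower, beside 12.9% of all genes. The 5 called with all libraries were named after their values were seen: *SP5*, *CCND1* (log2 fold change -4.08 ± 0.72 SE, adjusted p = 0.000405, with the lower levels in CS19), *SOX9* (log2 fold change -3.85 ± 0.36 SE, adjusted p = 2.76e-06), *PPARD* (log2 fold change -3.05 ± 0.45 SE, adjusted p = 0.000108) and *EPHB2* (log2 fold change -2.01 ± 0.22 SE, adjusted p = 9.16e-06). Without WT-2, the log2 fold changes of *PPARD* and *EPHB2* were -1.73 (adjusted p = 5.23e-07) and -1.71 (adjusted p = 5.04e-06), which pass the test but not the fold limit. *MYC* (log2 fold change 0.17 ± 0.23 SE, adjusted p = 0.549), *TNFRSF19* and *EPHB3* did not pass. Several of these genes answer to other pathways too.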

How the data were processed

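Ribosomal RNA-depleted, stranded paired-end RNA-seq libraries were made from 3 untreated lines, with 3 libraries each. The authors used Trimmomatic 0.36 for trimming and STAR 2.7.2b for alignment to GRCh38, and deposited raw counts of read pairs per gene, made with featureCounts of Subread 2.0.0 on gencode release 38. Per the file headers, mapping quality was at least 30 and strand was not used. Groups came from the labels. From these counts, edgeR 4.0.16 in R 4.3.3 was used to filter low genes (filterByExpr), normalize by TMM and run the quasi-likelihood test over all genes, with Benjamini-Hochberg adjustment, in a separate fit for each of 4 comparisons. Calls required both a log2 fold change reaching 2 and an adjusted p below 0.05. The scripts were tested on simulated data. Where all libraries of a group were at 0, a lower bound against 3 counts per library is given, and where none exceeded 3 counts, the ratio of pooled counts with an exact 95% interval, which covers counting error only. Labels do not say whether replicates are separate cultures, so p-values measure only the spread between these samples, which may be technical. The fit of both clones together takes every clone library as a separate sample, with no term for the clone. Members are given in every library when called against WT, or past the adjusted p between clones, with a mean of at least 1 CPM in the higher group; the rest are given by counts, ranges or fold changes, some with library values. Of the other pathway genes, the 3 of lowest adjusted p among those higher and among those lower are given. Members, lists and tests were chosen with earlier results of these data known. Alternatives were DESeq2 1.42.0, other normalizations, filters and fold limits, a replicate block, a shared fit and leaving out each library. The result of 1 marker list is not reported here.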

Additional observations from a re-analysis of the deposited data

Results flagged for a closer look

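The effects of the 2 clones against WT differed for 16 members, by the direct test of CS16 against CS19 at an adjusted p below 0.05 (edgeR's quasi-likelihood test). Among the ligands the log2 fold changes of CS16 against CS19 were -0.92 for *WNT3*, -0.88 for *WNT5A*, -0.83 for *WNT5B* and 1.00 for *WNT11*. Among the receptors they were -0.35 for *FZD1*, 5.25 for *FZD10*, -0.36 for *LRP5*, -0.19 for *LRP6* and -0.71 for *ROR2*, where the *FZD10* value rests on 4 counts in all of CS19. Among the antagonists they were 0.53 for *SFRP1* and -2.18 for *SFRP5*. Among the remaining members they were 0.27 for *LGR4*, 0.85 for *LGR5*, 0.65 for *NKD1*, 0.54 for *APC* and 0.65 for *LEF1*. In a fit that shared its spread with WT, 9 of the 16 did not pass: *WNT5B*, *FZD1*, *LRP5*, *LRP6*, *ROR2*, *SFRP1*, *LGR4*, *NKD1* and *APC*. The *LRP6* difference passed in only 3 of 13 alternatives. Each clone is 1 colony. In the 6 clone libraries, none of 28 members examined had a single library whose gap to its nearest neighbour exceeded 0.625 of the range. That range spans both clones, and 16 of these members differed between them, so the check says little about single outlying libraries.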

How the results depend on the processing

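The counts of called members in each comparison stayed within 1.5 times the reported ones under all alternatives that were run, except those named next. Without a fold limit, 16 members passed in CS16 against CS19, 8 in each direction. Of the other pathway genes, 32 were called with the fold limit at a log2 value of 1 (17 higher, 15 lower) and 40 without a fold limit (21 higher, 19 lower). Leaving out 1 library gave 19 to 23 called members for *SNAI1*-KO against WT, 23 to 25 for CS16 against WT, 18 to 22 for CS19 against WT, 2 in every case for CS16 against CS19, and 17 to 21 other pathway genes. Of the 23 calls against WT, DESeq2 kept 22 and gave *WNT7B* no adjusted p, while without a filter 21 were kept, *FZD7* and *LRP5* being lost, and 4 were gained, *LGR6*, *WIF1*, *WNT10A* and *WNT2*. In the comparisons of 1 clone with WT, the calls of *FZD7*, *WNT4* and *LRP5* were lost in some fits that left out a library, and *WNT10A*, *RSPO2*, *LRP5* and *FZD8* were gained in some. The shared fit gained *RSPO2* in CS16 and *DKK2* in CS19. *WNT10A* was also gained in both clones together without WT-1.

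With the replicate number as a block, 21 of the 23 calls were kept, *FZD10* and *LRP5* being lost. The clone differences of *LRP5* and *LRP6*, and *APC* against WT, did not pass with the block. Same-numbered libraries correlated between -0.386 and 0.331 in their deviations from the group means, so the numbers were not taken as pairs.

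No member called against WT changed sign. Of those not called, *CTNNB1* had a log2 fold change of 0.015 and *LGR4* of 0.065 without a filter, and *LGR4* had 0.026 with upper-quartile normalization and 0.011 with the replicate block. *SFRP5* had -0.30 in a shared fit. Leaving out 1 library gave both signs for 8 members: *CTNNB1* ranged from -0.284 to 0.081, *LGR4* from -0.328 to 0.154, *LRP6* from -0.032 to 0.226, *SFRP5* from -0.24 to 0.475, *TCF7* from -0.627 to 0.211, *TCF7L1* from -0.531 to 0.777, *WNT2B* from -0.148 to 0.394 and *WNT3* from -0.029 to 0.322. The causes were not tested. Members under about 1 CPM rest on few counts, 3 counts being 0.0984 to 0.172 CPM.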
